A study of Homo sapiens with 8 samples.

Results

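The guides described here target the messenger RNAs of the proteins of the large (60S) ribosomal subunit. They were chosen by gene symbol: an RPL or RPLP number, with or without a closing A, L or X, and not typed as a non-essential control. The rule found 398 of the 46829 guides of the screen, on 56 exon-exon junctions of 30 genes. The screen was run in A375, an established human melanoma line, in a monoclonal line with the labelled genotype TetO-RfxCas13d, so every group shares that single clone and its inducible nuclease. Cells without doxycycline were taken at Day 0, and cells under 1 ug/ml doxycycline at Days 7, 14 and 21, with replicates 1 and 2 at each day. All cells carried the lentiviral guide pool. No uninduced library beyond Day 0 was analysed here, so culture time and induction cannot be told apart.

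The large subunit joins amino acids into protein. Its proteins hold the ribosomal RNA in shape, line the tunnel through which the new chain leaves, form the stalk that recruits elongation factors and make the bridges to the small subunit. Cas13d is an RNA-guided nuclease that cuts RNA and leaves the gene intact, and a guide laid across a junction of exons matches the spliced transcript. A guide whose carrier cells divide less than the rest of the pool becomes rarer, so its abundance is a readout of growth and not of the level of its target RNA, which was not measured. Expression markers of the cell line could not be examined, since guides were the material sequenced. The guides are named below by the junction they target and by their number on that junction, from 1 to 8.

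Each value is a log2 fold change of a guide against Day 0 of the same replicate, where 0 means an unchanged share of the pool and −1 a halving. A gene value is the mean over its guides, and the error given is the SD over the 2 replicates. Nothing in the labels says that the replicates came from separate infections, so p-values measure the spread between these samples, which may be technical. Read depth was not stated. The fold changes are ratios of whole numbers, and the smallest Day 0 number that fits a guide, its implied number, had a median of 101 in replicate 1 and 136.5 in replicate 2 for the RPL guides (92 and 125 for all guides). At Day 21 the median implied number of the RPL guides was 10 in replicate 1 and 16 in replicate 2, against 67 and 108 for all guides. An implied number of 1, below which nothing further can be seen, was reached at Day 21 by 74 RPL guides in replicate 1 (18.6%) and 116 in replicate 2 (29.1%). The shares for all gene-targeting guides were 3.09% and 3.18%. For these guides the fold change is an upper limit on what was left.

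Most large subunit genes had lower guide abundance at every day. None was called higher by limma, nor had any of those tested a higher value at an unadjusted p under 0.05 (0 at each day). Genes with at least 3 guides were tested with limma across all 1223 such genes, and a gene was called at an adjusted p under 0.05. Of the 27 RPL genes tested, 20 were called lower at Day 7, where 3.92% of all genes were called lower. At Day 14 it was 24 of 27, against 22.1% of all genes, and at Day 21 it was 22 of 27, against 20.8%. All 20 genes called at Day 7 were called at the later days too, and they were 20 of the 48 genes called lower at Day 7 in the whole screen. How many of the other genes called at Day 7 stayed called is not given here. The median over the 30 genes was −0.91 in replicate 1 and −1.66 in replicate 2 at Day 7, −2.38 and −3.14 at Day 14, and −2.74 and −3.16 at Day 21. The medians over all 1250 genes at Day 21 were −0.36 and −0.26. Both replicates were below −1 at Day 21 in 24 of the 30 genes, and in 15.4% of all genes. RPL genes held 12 of the 20 lowest gene means at Day 7 and 9 of the 20 lowest at Day 21. Of the 10 lowest at Day 21 they held 6.

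The count at Day 7 depended on the fit. Limma called 0 of 27 when the days shared 1 spread (22 had an unadjusted p under 0.05). It called 0 when guides with an implied number under 50 at Day 0 were dropped (24 unadjusted). With values centred on guides to the control genes it called 0 (23 unadjusted), and with centring on all guides 1 (23 unadjusted). The shares of all genes called in these fits are not given here. A loss of calls among RPL genes therefore cannot be told apart from a loss across the screen. The Day 21 count was 7 with guide medians in place of guide means (21 at an unadjusted p under 0.05 in limma). With centring on all guides it was 12 (22 unadjusted). RPL7, RPL13A, RPL24 and RPL27A were among those not called with guide medians (limma adjusted p 0.0882, 0.0788, 0.0597 and 0.0895). Their guide-median values of −5.38, −5.51, −5.21 and −5.88 were lower than their guide means of −5.11, −4.74, −4.49 and −5.37. Other genes not called moved toward 0, such as RPL6 (−1.72 to −0.55) and RPL11 (−2.77 to −1.97). Replicate 2 was lower than replicate 1 in 27 of the 30 genes at Day 7, 21 at Day 14 and 20 at Day 21.

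The P stalk is the flexible arm of the large subunit that recruits elongation factors. RPLP2, an acidic stalk protein, had values of −1.83 and −3.02 at Day 7, −3.94 and −5.85 at Day 14, and −4.25 and −5.70 at Day 21 over 7 guides of 1 junction (replicates 1 and 2). Its Day 21 mean was −4.97 ± 1.03 (SD, n = 2; SE 0.42, limma adjusted p 0.0126), and all 7 guides were below 0 in both replicates. RPLP1, its partner in the stalk, had only 2 guides and was not tested; its values were −0.21 and −1.10 at Day 7, −2.05 and −2.01 at Day 14, and −4.44 and −4.34 at Day 21. It reached 46.1% of its Day 21 log2 change by Day 14, the other members of the stalk 87.4% or more. RPLP0, which anchors the acidic pair to the ribosome, had a Day 21 mean of −2.66 ± 0.64 over 16 guides (limma adjusted p 0.0163). That mean joins 2 junctions with very different values, described below. RPLP0 and RPLP2 were both outside the threshold after centring on all guides, with limma adjusted p-values of 0.0647 and 0.0511. With guide medians RPLP2 was not called at Days 14 and 21 (Day 21 limma adjusted p 0.103). RPLP0 stayed called at Day 21 with guide medians (limma adjusted p 0.0494). RPL12, which sits at the base of the stalk, was not among the genes found by the rule.

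RPL5 and RPL11 bind 5S ribosomal RNA together, and outside the ribosome this particle can bind MDM2, the ubiquitin ligase of p53. Their values differed. RPL11 stood at −1.37 and −2.38 at Day 7, −2.34 and −3.17 at Day 14, and −2.61 and −2.93 at Day 21 over 16 guides. It was called lower at all 3 days (Day 21 limma adjusted p 0.0107). With guide medians it stood at −1.97 at Day 21 and was not called (limma adjusted p 0.0867). RPL5 stood at −0.06 and −0.12 at Day 7, −0.66 and −0.98 at Day 14, and −0.87 and −0.45 at Day 21 over 11 guides. It was called lower at Day 14 (limma adjusted p 0.0303) and not at Day 21 (SE 0.18, adjusted p 0.0908; 0.0121 with the replicate block). Its Day 14 call was lost with centring on all guides (limma adjusted p 0.101), with centring on guides to the control genes (0.0700) and with guide medians (0.122), and its Day 14 mean of −0.82 became −1.48 without guides under an implied 50 at Day 0. The gene mean of RPL11 was lower than that of RPL5 in both replicates at each day. The RPL11 mean joins 2 junctions of 8 guides each with very different values, described below. At Day 21 the higher of them stood at −0.66 and −0.41, above the RPL5 gene mean in both replicates. The difference between the 2 genes was not tested.

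Of the proteins found by the rule, 3 line the peptide tunnel or its exit. RPL4, which reaches into the tunnel wall, was measured by 40 guides on 5 junctions. Its values were −1.02 and −1.63 at Day 7, −3.48 and −3.80 at Day 14, and −4.18 and −4.61 at Day 21, the last with a mean of −4.40 ± 0.31 (SD, n = 2; SE 0.18, limma adjusted p 0.0107). Of its guides, 37 were below 0 in both replicates and 32 were called lower at Day 21. RPL19, which runs from the tunnel exit toward the small subunit, was slower: −0.29 and −1.09 at Day 7 (limma adjusted p 0.109), −1.45 and −2.13 at Day 14 and −2.50 and −2.80 at Day 21 (adjusted p 0.0107). RPL35, a docking site for factors that meet the chain at the exit, had values between −0.54 and 0.02 in all 6 libraries. It was not called at any day (Day 21 SE 0.15, limma adjusted p 0.128; 0.0126 with the replicate block).

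The bridge and late joining proteins were also mixed. RPL24 enters the subunit late, in the cytoplasm, and contacts the small subunit. It had values of −1.95 and −2.15 at Day 7, −3.30 and −5.01 at Day 14, and −4.05 and −4.93 at Day 21 over 8 guides, with a mean of −4.49 ± 0.63 (SD, n = 2; SE 0.28, limma adjusted p 0.0107). RPL8, which lies near the catalytic centre, stood at −0.31 and −0.87, then −1.86 and −1.52, then −2.10 and −1.48, and was called lower at Days 14 and 21 (Day 21 limma adjusted p 0.0206; 0.0674 after centring on all guides). RPL30, a bridge protein, was not called at any day, with −0.94 in replicate 1 and 0.52 in replicate 2 at Day 21 (SE 0.42, limma adjusted p 0.768). Its replicate 2 value rested on guide 8, whose implied number was 68 at Day 0 and 2730 at Day 21 there (5.20 on the log2 scale). In replicate 1 it was 87 and 96 (0.21). Without that guide, an exclusion chosen after its values were seen, the Day 21 values of RPL30 were −1.11 and −0.14.

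The remaining 19 genes held the lowest means. RPL27A had −1.37 and −3.01 at Day 7, −4.48 and −5.65 at Day 14, and −4.31 and −6.44 at Day 21 over 8 guides of 1 junction, and all 8 guides were called lower at Days 14 and 21. RPL7 had −1.30 and −2.60, then −4.88 and −5.62, then −4.47 and −5.74, with all 16 guides of its 2 junctions called lower at Days 14 and 21. The replicates of these 2 genes were far apart, with an SD of 1.51 (SE 0.59, limma adjusted p 0.0175) and 0.90 (SE 0.37, adjusted p 0.0107) at Day 21, but every guide was below 0 in each.

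RPL13A, which is also known as a repressor of translation when released from the ribosome, had the lowest Day 7 value of the tested genes. Its values were −3.16 and −4.43 at Day 7, −4.07 and −5.76 at Day 14, and −4.04 and −5.45 at Day 21 over 8 guides. The Day 7 mean of −3.79 ± 0.90 (SD, n = 2; limma adjusted p 0.000545) was the lowest of all 1223 genes tested, and equalled 80.0% of the Day 21 log2 change. RPL23, the site where an anti-association factor docks, had a single guide, which was untested as a gene; it stood at −3.87 and −2.62 at Day 7, −4.55 and −6.65 at Day 14 and −4.42 and −3.21 at Day 21. That guide was lower at Day 14 than at Day 21 in both replicates, and its Day 7 mean was 85.0% of its Day 21 mean.

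A middle group of 8 further genes followed. RPL34 had −3.75 and −4.87 (19 guides), and RPL35A, a gene mutated in Diamond-Blackfan anaemia, −3.47 and −4.37 (16 guides). RPL7A stood at −3.83 and −3.68, and RPL38, known for a role in the translation of homeobox messages, at −3.21 and −3.90. RPL28 stood at −2.78 and −4.12, RPL15 at −2.70 and −3.54, RPL27 at −3.02 and −2.44, and RPL3, whose loops reach the catalytic centre, at −2.68 and −3.12 over 48 guides. All 8 were called lower at every day, with limma adjusted p-values at Day 21 between 0.0107 and 0.0184.

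RPL14 at −2.04 and −2.55, RPL13 at −2.27 and −1.89 and RPL6 at −1.30 and −2.15 were called lower at Day 21 as well. RPL6 had the largest adjusted p of the called genes (limma, 0.0320), which became 0.0651 when values were centred on non-targeting guides. With guide medians RPL6 stood at −0.55 and RPL13 at −1.19, and neither was called (limma adjusted p 0.179 and 0.0895). The last 3 genes were not called at Day 21. RPL18 had −1.30 and −0.32 (limma adjusted p 0.158, and 0.0076 with the replicate block). At Day 14 RPL18 was called lower (mean −0.74, limma adjusted p 0.0395). That call was lost with guide medians, with days sharing a spread, and with centring on all guides or on guides to the control genes. It was also lost without guides under an implied 50 at Day 0. RPL9 had 0.14 and −0.71 (SE 0.27, limma adjusted p 0.526). RPL37A had 1 guide, untested as a gene, at −0.25 and 0.07. That guide targeted a junction listed from 216520774 to 216529269 of chromosome 2, the only 1 of the 56 that lay outside the RefSeq span of its gene in GRCh38.p14, downstream of it.

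The deposited table types 23 of the 30 genes as essential under Cas13 and 7 as not essential, by a criterion that was not stated and may rest on these same values. The 7 were RPL27A, RPLP1, RPLP0, RPL18, RPL35, RPL37A and RPL9. They held the lowest gene of the whole set, RPL27A at −5.37, and the highest, RPL37A at −0.09. The RPL37A value rests on 1 untested guide, on the junction outside the RefSeq span of the gene. Among the tested genes of this type the highest was RPL9 at −0.28. In the other direction, RPL5 and RPL30 were typed essential with Day 21 means of −0.66 and −0.21, neither called. The table lists 49 of the junctions as common and 7 as partial_unique. All 7 partial_unique junctions belonged to genes typed not essential, and RPL9 was the only gene of that type without one.

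Most of the Day 21 change was reached by Day 14. For the 22 genes called lower at Day 21, the Day 7 value was a median of 44.4% of the Day 21 log2 change (range 24.2% to 80.0%), and the Day 14 value 94.5% (range 67.7% to 116%). The difference between Day 14 and Day 7 was tested itself, within each replicate, with limma over all genes. It was called lower for 23 of the 27 RPL genes, against 21.1% of all genes, with a median of −1.35 in replicate 1 and −1.14 in replicate 2. The largest was that of RPL7, at −3.30 (−3.58 and −3.01; limma adjusted p 3.45e-05), followed by RPL27A at −2.87. From Day 14 to Day 21 only RPL19, at −0.86 (−1.05 and −0.67; adjusted p 0.0374), and RPL4, at −0.75 (−0.69 and −0.81; adjusted p 0.0466), were called, where 1.06% of all genes were called lower. When values were centred on non-targeting guides limma called 0 RPL genes (5 at an unadjusted p under 0.05). Guides at an implied number of 1 cannot decline further, and among RPL guides these numbered 40 at Day 14 and 74 at Day 21 in replicate 1, and 100 and 116 in replicate 2. Their part in the small later change was not tested.

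Guides on different junctions of the same large subunit message often gave different values. Each junction with at least 3 guides was compared with the other guides of its gene at Day 21, with limma over all 6111 such junctions. Of the 39 RPL junctions in this test, 29 were called, 15 lower and 14 higher than the rest of their gene, in 13 of 16 genes; 21.9% of all junctions were called. In a gene with 2 junctions both results are the same comparison with the sign turned. With 2 replicates these p-values lean on the spread shared over all junctions, and they say that the guides concerned differ, not that splice isoforms do.

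RPLP0 had the widest gap. The 8 guides on the junction from 120199205 to 120199309 of chromosome 12 (minus strand) averaged −5.00 and −6.40 at Day 21, and all 8 were called lower. The 8 guides on the next junction, from 120199000 to 120199117, averaged 0.60 and 0.18; none was called lower and none was below 0 in both replicates. The first set was already at −1.98 and −3.40 at Day 7, when the second stood at 0.21 and 0.01. At Day 21 every guide of the first junction was at or below −2.49 in both replicates; the lowest value on the second was −2.56, for guide 8 in replicate 2, which stood at 1.42 in replicate 1. The difference was −6.09 (−5.60 and −6.58; limma adjusted p 2.79e-15). Both junctions lay inside the RPLP0 gene, and both were listed as partial_unique.

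RPL34 was similar. Its junction from 108622618 to 108625127 of chromosome 4 (plus strand) averaged −5.25 and −7.25 at Day 21, and all 8 of its guides were called lower at Day 7 as well as at Day 21. The middle junction, from 108622204 to 108622514, averaged −3.39 and −4.23. The most upstream, from 108622024 to 108622104, had only 3 guides, at −0.73 and −0.23 on average, with none called. The most downstream junction was 3.35 lower than the other guides of the gene on the log2 scale (−3.35, limma adjusted p 1.22e-08). The most upstream was 4.55 higher (limma adjusted p 2.44e-11).

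In RPL11 the junction from 23695908 to 23696343 of chromosome 1 (plus strand) averaged −4.56 and −5.44, with 7 of 8 guides called lower. The junction before it, from 23694791 to 23695797, averaged −0.66 and −0.41, with 1 of 8 called, a difference of −4.47 (−3.90 and −5.04; limma adjusted p 1.39e-11). In RPL27 the junction from 43000102 to 43002672 of chromosome 17 (plus strand) averaged −4.36 and −4.88. That from 43002783 to 43002871 averaged −1.68 in replicate 1 and 0.01 in replicate 2, a difference of −3.78 (adjusted p 3.19e-09). RPL6 and RPL13 also had a junction with a mean above −1 beside a low one. In RPL6 the means were −0.26 ± 0.11 against −3.18 ± 1.09 (SD, n = 2). In RPL13 they were −0.69 ± 1.06 against −3.47 ± 0.52 (SD, n = 2). The higher RPL13 junction stood at −1.44 in replicate 1 and 0.06 in replicate 2. The differences in RPL6 and RPL13 were both called, with limma adjusted p-values of 1.84e-07 and 1.54e-06.

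RPL35A, RPL7A and RPL15 had both junctions low, to different degrees. The lower junction of RPL35A stood at −4.44 and −5.84 and the other at −2.49 and −2.89. In RPL7A they were −4.30 and −4.64 against −3.36 and −2.73, and in RPL15 −3.51 and −4.13 against −1.90 and −2.96. The limma adjusted p of the difference was 0.0041 or less in these 3 genes, and at least 4 of 8 guides were called lower on each of their junctions.

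In RPL3, the gene with the most junctions, 4 of the 6 were called different from the rest. The junction from 39314208 to 39314685 of chromosome 22 (minus strand) stood at −0.99 and −0.58 with 0 of 8 guides called lower by limma, while those on either side, from 39313729 to 39314106 and from 39314846 to 39315368, stood at −3.70 and −3.89 and at −3.42 and −3.32. The lowest, from 39317629 to 39318399, stood at −3.55 and −4.45. RPL4 was more even: its 5 junctions lay between −5.49 and −3.27 in the mean of the replicates, although 3 of them were called. RPL7, with −5.50 and −4.71, and RPL14, with −2.28 and −2.32, showed no called difference between their 2 junctions (limma adjusted p 0.165 and 0.967).

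RPL18 was the only gene of the set with a common and a partial_unique junction. The common junction, from 48616824 to 48617315 of chromosome 19 (minus strand), stood at −0.43 and 0.43 over 7 guides. The partial_unique junction, from 48615946 to 48616078, stood at −2.05 and −0.97 over 8 guides. It was lower by −1.51 (−1.62 and −1.40; limma adjusted p 0.00173), but 1 of its 8 guides was called lower on its own.

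Single guides were tested with limma over all 46829 guides. Of the 398 RPL guides, 119 were called lower at Day 7, against 2.1% of all guides. At Day 14 it was 198, against 7.96%, and at Day 21 it was 221, against 11.1%. None was called higher by limma (0 at each day, against 2 or 3 guides at an unadjusted p under 0.05). Each of the 119 guides called at Day 7 was also called at Days 14 and 21, and 230 guides were called at some day. Over the whole screen 985 guides were called lower at Day 7. How many of those stayed called, and how many of all guides were called at some day, is not given here. The overlap is therefore not shown to be particular to RPL guides. The Day 7 count was 31 with the replicate block and 0 with all days sharing a spread (112 at an unadjusted p under 0.05).

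At Day 21, 299 of the 398 guides (75.1%) were below 0 in both replicates, against 39.0% of all gene-targeting guides, and 38 were above 0 in both. The replicate means were at or below −3 for 210 guides (52.8%, against 8.99%) and above −1 for 130 (32.7%, against 72.1%). The guides of a junction differed widely among themselves. Of the sum of squares of the Day 21 guide means, 24.7% lay between genes, 21% between junctions of a gene and 54.3% between guides of a junction. These are raw shares, not set against the number of genes, junctions and guides. Having many more guides than junctions or genes raises the last share. Of the 45 junctions with all 8 guides, 32 held both a guide at −3 or lower and a guide above −1, and 13 had all 8 guides below 0 in both replicates. The gap between the lowest and the highest guide of such a junction had a median of 6.38. These differences recurred in part between replicates: after the junction mean was taken out, the guide values of replicates 1 and 2 correlated at 0.602 (Pearson's r over 398 guides, a description, since guides of a replicate share their library and Day 0).

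The lowest guide of RPL13A, number 3, had −4.14 and −6.13 at Day 7 and −7.16 and −7.99 at Day 21, from an implied 149 and 232 to 1 in both replicates. Guide 1 of the same junction stood at −0.37 and 0.81 at Day 21. In RPL24, guide 6 stood at −6.33 and −7.62, from an implied 84 and 180 to 1, while guide 2 stood at −0.45 and 1.12. In RPL4, guide 7 of the junction from 66500376 to 66500948 of chromosome 15 stood at −6.62 and −7.88, again with an implied number of 1 in both replicates, while guide 2 of the junction from 66503164 to 66503357 stood at −0.84 and 1.67. RPLP2 guide 3 stood at −6.74 and −7.15 and guide 8 at −0.60 and −1.24. Every guide of RPL7 was low: its highest, number 3 of the junction from 73291910 to 73292238, still stood at −4.09 and −3.36 (limma adjusted p 0.00106). The highest of RPL27A, number 8, stood at −2.72 and −2.44 (adjusted p 0.0318).

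Among the genes at the other end, the lowest single guides differed between replicates. The lowest guide of RPL5, number 8 of the junction from 92833660 to 92834778 of chromosome 1, had −6.81 in replicate 1 and −0.85 in replicate 2. The lowest of RPL35, number 2, had −0.65 and −6.42, and the lowest of RPL30, number 4, had −6.20 and −2.17. The limma adjusted p-values were 0.00466, 0.00915 and 0.000688, so these guides counted as called although the replicates were up to 4.21 apart in SD. The lowest guide of RPL9, number 8, stood at −0.59 and −1.62 and was not called (adjusted p 0.593).

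Other features of the genes and junctions did not order the values in a simple way. Of the 50 junctions with at least 3 guides, 11 span an intron that holds a small nucleolar RNA gene in RefSeq (GRCh38.p14), such as SNORA52 in RPLP2 and SNORD33 in RPL13A. Their median at Day 21 was −3.42 in replicate 1 and −3.33 in replicate 2, against −2.50 and −3.95 for the other 39, so the order turned between replicates. Of the 15 genes with more than 1 such junction, the junction nearest the start of the gene was the lower of the outer ones in 7 and the farthest in 8. RefSeq names between 5 (RPLP2, RPL11 and RPL8) and 80 (RPL7A) pseudogenes after these genes, whose transcripts a junction guide could also match. Over the 30 genes the rank correlation of that number with the Day 21 mean was 0.011 (Spearman's rho, a description). The GeCKO gene score of the deposited table, named after a Cas9 knockout library and made in a way that was not stated, was lowest for RPL3 and highest, at −0.87, for RPLP1, with a median of −1.31 over these genes and −1.12 over all scored genes. It gave a Pearson's r of −0.055 and a Spearman's rho of 0.017 with the Day 21 mean, likewise as a description over 30 genes.

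Genes of the small ribosomal subunit were the nearest comparison. Of 16 RPS genes tested, 6 were called lower at Day 7 and 13 at Days 14 and 21. At Day 7 the share called lower was 37.5% of RPS genes, 74.1% of RPL genes and 3.92% of all genes. The gap was smaller at an unadjusted p under 0.05 (limma), with 12 of 16 RPS genes and 23 of 27 RPL genes lower. As described above, the RPL count at Day 7 depended on the fit, and RPS counts in the other fits are not given here. At Day 21 the RPS and RPL shares were alike, at 81.25% and 81.5%, against 20.8% of all genes. The median over RPS genes at Day 21 was −2.06 in replicate 1 and −2.41 in replicate 2, higher than that of the RPL genes. The RPL minus RPS difference was −0.72 ± 0.055 (SD, n = 2; −0.68 and −0.76), and −0.74 ± 0.27 at Day 7. That SD is over 2 libraries that measured the same genes and leaves out the spread among genes. The means of the tested RPL genes alone ran from −5.37 to −0.21 at Day 21. The Day 21 difference was −1.22 with the median over the guides of a gene and −1.65 with the median over the guides of each list. An exact two-sided sign-flip test over 2 replicates cannot go below 0.5, and no p is given. At guide level, 37.9% of the 195 RPS guides and 55.5% of the RPL guides were called lower at Day 21.

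Factors that assemble the large subunit in the nucleolus and cytoplasm were measured for 30 of the 55 genes listed. Of these, 0 were called lower by limma at Day 7 (2 at an unadjusted p under 0.05) and 8 at Days 14 and 21 (26.7%, near the 20.8% of all genes at Day 21), with medians of −0.52 and −0.41 at Day 21. The 13 measured proteins of the mitochondrial large subunit, which makes proteins encoded by mitochondrial DNA, had 0 genes called lower by limma at any day (0, 1 and 0 at an unadjusted p under 0.05 at Days 7, 14 and 21). Their Day 21 medians were −0.17 and 0.0017.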

How the data were processed

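Per the file headers, the authors deposited log2 fold changes, a value per guide, day and replicate, and a GeCKO gene score. Library scaling, pseudocount and filters were not given in the sources used here. The submitters' processing notes name cutadapt 3.5, Bowtie 1.1.2 and hg38. The deposited table held no counts, so the log2 values were fitted by limma 3.58.1 under R 4.3.3, each day alone, with the mean of the 2 replicates tested against 0 and Benjamini-Hochberg adjustment over all genes (at least 3 guides), guides or junctions. The scripts were tested on simulated data. In every library, 100% of the fold changes equalled a constant plus the log2 of 1 whole number over another (tolerance 1e-06, denominators up to 2000), which gives the implied number. It is a lower bound and would include any pseudocount.

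Replicate numbers pair the libraries, as each value is relative to Day 0 of its replicate. Over genes, same-numbered libraries deviated together from their day's mean, with r of 0.484 (Days 7 and 14), 0.411 (Days 7 and 21) and 0.647 (Days 14 and 21). A replicate block puts the replicate number into a joint fit of all days.

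The members, roles and comparison lists were chosen with earlier results of these data known. By rule all 30 genes could be named (1 is counted but not reported here), with full statistics for the 6 lowest and 4 highest tested at Day 21, for the genes called at Day 7 or typed not essential (in part given as ranges), and for the lowest and highest guide of those 10. Alternatives were other centring, guide medians, guide minimums, joint or robust fits, the block and each replicate left out. RefSeq symbols matched all 30 genes. Guide sequences were not used here.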

Additional observations from a re-analysis of the deposited data

Results flagged for a closer look

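Values that differ between time points by a test of the difference itself (limma within replicates, adjusted p under 0.05) are given here. From Day 7 to Day 14 the difference was called for 23 RPL genes, of which 22 are named. It was −3.30 for RPL7, −2.87 for RPL27A, −2.47 for RPLP2, −2.33 for RPL38, −2.32 for RPL4, −2.13 for RPL28 and −2.10 for RPL24. It was −1.97 for RPL35A, −1.72 for RPL7A, −1.71 for RPL34, −1.52 for RPL3, −1.39 for RPL27 and −1.26 for RPL14. RPL13A, already low at Day 7, had −1.12, RPL8 −1.11, RPL19 −1.10, RPLP0 −1.03, RPL15 −1.02 and RPL13 −1.01. The smallest called differences were −0.96 for RPL6, −0.88 for RPL11 and −0.73 for RPL5. From Day 14 to Day 21 it was called for 2 genes, RPL19 at −0.86 and RPL4 at −0.75.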

How the results depend on the processing

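The number of RPL genes called lower at Day 7, 20 in the fit reported, was 0 in limma with all days sharing a spread, 0 with centring on control-gene guides, 0 without guides under an implied 50 at Day 0, 4 with robust empirical Bayes and 1 with centring on all guides; between 22 and 24 of the 27 had an unadjusted p under 0.05 in these fits. At Day 21 it was 12 after centring on all guides and 7 with the median over guides, against 22. The Day 7 count of guides was 31 with the replicate block and 0 with all days sharing a spread, against 119. No RPL gene differed between Days 21 and 14 after centring on the non-targeting guides (0). The replicate block added RPL5, RPL18 and RPL35 at Day 21, left the 24 genes at Day 14, and at Day 7 lost RPL14 and RPL27 and added RPL19.

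The median over RPL genes at Day 21 became −2.64 after centring on all guides, and lay between −3.16 and −2.74 without either replicate. The RPL minus RPS difference became −1.22 with the median over the guides of a gene and −1.65 with the median over the guides of each list; it lay between −0.76 and −0.68 without either replicate. The sign turned for 4 uncalled genes: RPL30 to 0.098 after centring on all guides and 0.12 with the median over guides (−0.94 to 0.52 without either replicate); RPL9 to 0.026 after centring on all guides (−0.71 to 0.14 without either replicate); RPL35 to 0.14 with the median over guides; RPL37A lay between −0.25 and 0.073 without either replicate. The cause was not tested. The median over all guides that centring took out at Day 21 was −0.33 in replicate 1 and −0.28 in replicate 2. Depth limits the lowest guides, whose values stop at an implied number of 1.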
